A study of Equus caballus with 8 samples.

Results

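Interferon-stimulated genes are the transcripts that cells raise when an interferon, a secreted antiviral signal, binds its receptor. The set described here is a list of 38 classical genes of this kind, matched by symbol to NCBI Gene IDs of the horse. Of the 38, 34 had a Gene ID in the count table of 24942 genes, and each of the 34 had at least 10 counts in total. TRIM25, IFIT1, IFIT2 and GBP1 had no matching Gene ID and are not analysed here, and 0 genes were dropped for low counts. The list was not chosen by a measured value, but earlier results of these data were known when it was drawn up.

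The RNA came from endometrium, the lining of the uterus, of 4 Bavarian Warmblood mares. The mares were sampled on Day 12 in both states, pregnant and cyclic (not pregnant), 1 biopsy per state in random order, which makes 4 pregnant and 4 cyclic libraries in 4 pairs. Per the labels, both states followed ovulation induced with 1500 IU of human chorionic gonadotropin, mares were inseminated with semen of a single stallion, and biopsies were taken after a flush of the uterus, which in pregnancy served to recover the embryo that ultrasound had shown. The labels give 1 protocol for both states and do not say whether the cycles that gave control biopsies were also inseminated, nor the mares' ages or the interval between a mare's biopsies. A biopsy holds epithelium, glands, stroma, vessels and leukocytes together, so fewer cells of a type and less RNA per cell cannot be told apart.

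In ruminants, the conceptus announces itself by secreting interferon tau, and the endometrium answers with a broad rise of interferon-stimulated genes. The horse conceptus, a sphere that migrates through the uterus at this stage, is not known to use interferon tau as its signal. Within a cell, a type I interferon acts through the receptor chains IFNAR1 and IFNAR2 and the kinases JAK1 and TYK2, which activate a complex holding STAT2 and IRF9 that binds the promoters of these genes. Many of their products detect, degrade or trap viral RNA, and others feed back on the pathway.

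The cyclic libraries held 15.5 to 16.5 M counts, the pregnant library of mare 1 held 9.81 M and the other pregnant libraries 16.4 to 16.7 M. Levels are given as CPM, counts scaled to library size with TMM factors. Where a gene had 0 counts, up to 3 remain possible (counting error only). That limit is 0.306 CPM for the library of 9.81 M and 0.180 to 0.194 CPM elsewhere. Marker lists of epithelium and stroma were read: 8 of 10 epithelial and 9 of 10 stromal markers had a Gene ID and none of these was at 0. Their summed levels were 1609 to 1982 CPM and 3072 to 4666 CPM over the 8 libraries. Most of these markers are not particular to the uterus, so values above 0 do not test that the tissue is endometrium. Of 10 trophoblast-associated genes, 9 had a Gene ID, CDX2 and HAND1 had 0 counts in the 8 libraries, and the sum of the 9 ran from 14.8 to 22.1 CPM in the cycle and from 27.6 to 34.6 CPM in pregnancy.

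Part of the list rose by modest amounts in pregnancy. Of 34 genes tested, 12 were higher and 1 was lower at an adjusted p below 0.05 (edgeR's quasi-likelihood test with the mare as a block, Benjamini-Hochberg adjustment over 15342 genes), while 8.53% of all genes tested were higher and 8.19% lower. The 12 risers were IRF7, UBE2L6, HERC6, OAS1, OAS2, OASL, IFIT3, MX1, CMPK2, BST2, IFI6 and XAF1, and the faller was EPSTI1. Fold changes of the risers ran from 1.32 to 2.62, and 1 of the 12 reached 2-fold, 8 lay between 1.5-fold and 2-fold and 3 lay below 1.5-fold. Over the 34 genes the median log2 fold change was 0.36, beside 0.004 over all genes tested, and 31 of 34 had an estimate above 0, beside 50.8% of all genes. In 4 of 4 mares, 17 of the 34 were higher in pregnancy, beside 19.2% of all genes. For 11 of the 34 the lowest pregnant library lay above the highest cyclic library, beside 6.0% of all genes, and for 0 of the 34 the reverse held, beside 4.73%.

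The count of risers depended on the pairing and on each mare. Without the mare as a block, 3 of the 34 (IRF7, CMPK2 and IFI6) were higher and 0 lower, beside 1.75% and 0.789% of all genes. Leaving out mare 1, 2, 3 or 4 left 8, 9, 10 or 9 higher, beside 4.25%, 6.17%, 6.28% or 6.85% of all genes. EPSTI1 was also lower without mare 2 or 3, and 0 of the 34 were lower without mare 1 or 4, while 3.99%, 5.87%, 5.87% and 6.57% of all genes were lower without mares 1 to 4. DESeq2 called 10 higher and 1 lower, beside 7.34% and 7.6%. With library totals in place of TMM scaling 12 were higher and 1 lower as before, beside 9.23% and 5.63% of all genes, a split of 1416 to 864 in place of 1309 to 1256.

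**Figure D1:**
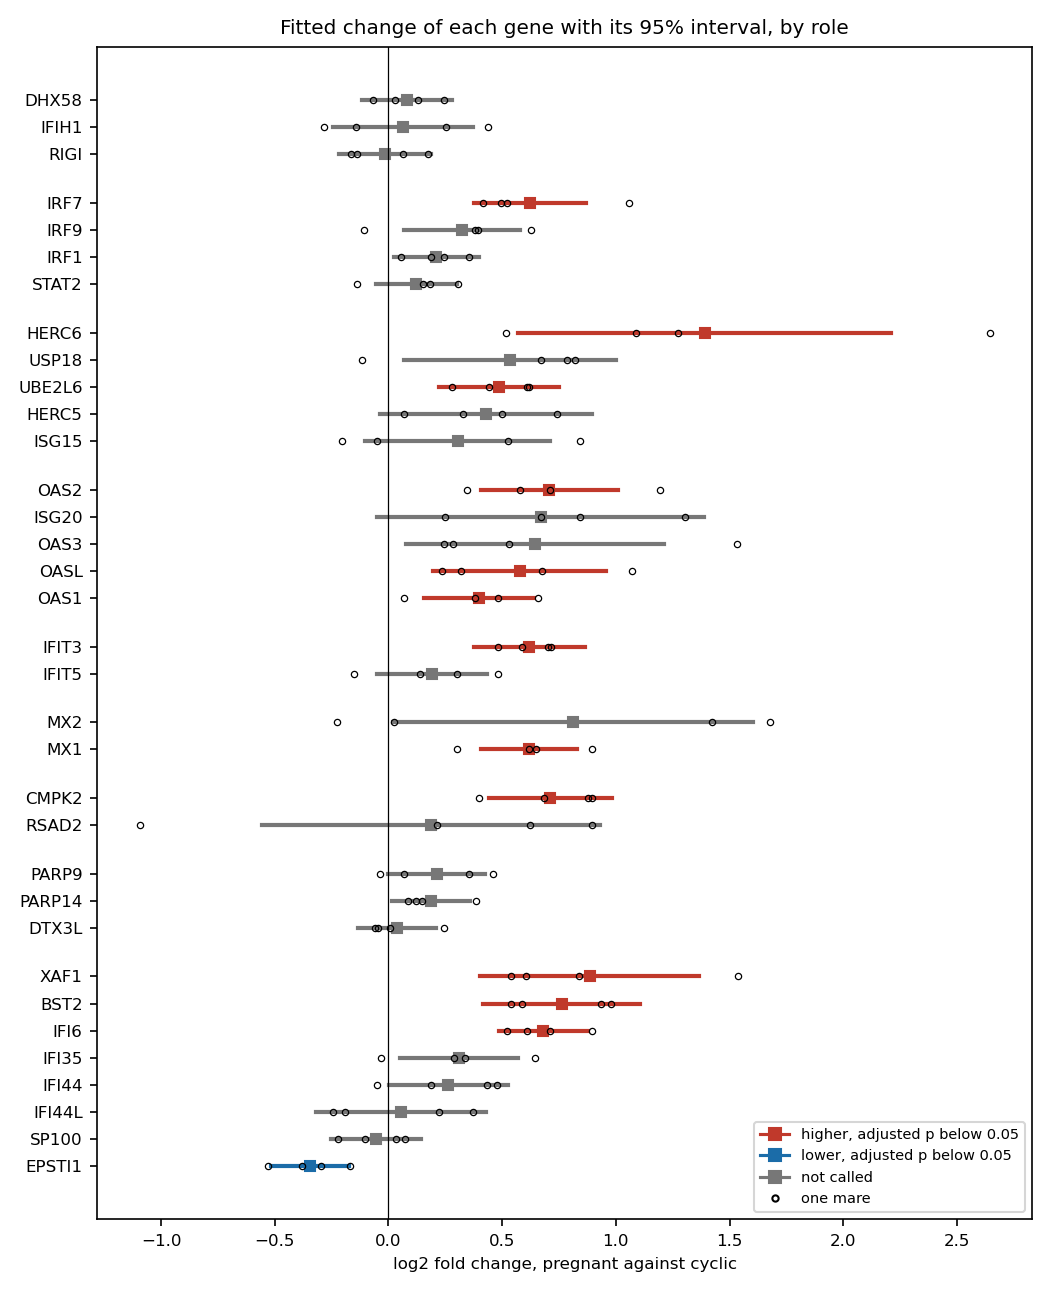
Each row is 1 of the 34 genes, grouped by role from RNA sensors at the top to membrane and other proteins at the bottom; squares are fitted log2 fold changes of pregnant against cyclic endometrium, bars their 95% intervals, and open circles the log2 ratio of each of 4 mares. Red squares (12 genes) passed as higher, the blue square (EPSTI1, log2 fold change -0.35) passed as lower, and grey squares did not pass; HERC6 lies farthest right at 1.39.

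The ligands come first in the pathway, and of those with a Gene ID nearly none was detected. Counts were 0 in all 8 libraries for IFNA1, IFNB1, IFNG (interferon gamma), IFN-ALPHA2, IFN-OMEGA1, IFN-OMEGA2 and IFND2. IFND1, an interferon delta, had 0 to 4 counts per cyclic library and 0 to 1 per pregnant library, and IFNK had 2 counts in all. No Gene ID matched IFNT, the symbol of interferon tau, which is not analysed here. The same holds for the lambda interferons IFNL1, IFNL2, IFNL3 and IFNL4, so that class of ligand was not measured. Poly(A) libraries of whole biopsies at this depth can miss a transcript made by few cells, so these values limit the transcript in the biopsy and not the protein that reached it.

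IFNE, interferon epsilon, a type I interferon known from the epithelium of the female tract, was the 1 ligand with enough counts to test. It stood at 9.08, 6.22, 5.28 and 6.51 CPM in the cyclic libraries of mares 1 to 4 and at 6.76, 4.77, 4.44 and 5.39 CPM in their pregnant libraries. The pregnant value was the lower in 4 of 4 mares, and the groups overlapped. Its log2 fold change of -0.33 ± 0.14 (SE) did not pass (adjusted p = 0.131, and 0.121 to 0.434 over 12 alternatives).

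Of the 5 receptor chains tested, 1 rose and 0 fell, beside 8.53% and 8.19% of all genes. IFNGR1, the ligand-binding chain of the interferon gamma receptor, had 51.6, 57.7, 54.3 and 51.1 CPM in the cycle and 67.4, 75.7, 61.9 and 60.7 CPM in pregnancy, with no overlap. That is a fold change of 1.23 (95% interval 1.11 to 1.37; adjusted p = 0.0154), and IFNGR1 passed in 9 of 12 alternatives but not without mare 1 or 2 (adjusted p = 0.0940 and 0.0606). IFNAR1, IFNAR2 and IFNGR2 had fold changes of 1.12, 1.12 and 1.06, and IFNLR1, the receptor chain of lambda interferons, had 0.988. None of these 4 passed (adjusted p 0.188 to 0.956).

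Of 5 kinases and STAT proteins of the pathway, 0 were called, 0 had an unadjusted p below 0.05 in edgeR's test, and 0 were called in any of 12 alternatives. Mean levels of JAK1 were 607 ± 41.1 CPM in cyclic and 617 ± 50.3 CPM in pregnant endometrium (SD, n = 4 each), a fold change of 1.02 with a 95% interval of 0.889 to 1.16. TYK2 had a fold change of 0.938 (0.841 to 1.05) and JAK2 of 1.01 (0.872 to 1.18). STAT3 had a fold change of 1.07 (0.963 to 1.18; adjusted p = 0.377).

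Sensors of viral RNA, which are themselves classical interferon-stimulated genes, were not called: 0 of 3 passed, 0 had an unadjusted p below 0.05 in edgeR's test, and 0 passed in any of 12 alternatives. RIGI had 25.6, 27.8, 20.4 and 29.5 CPM in the cyclic libraries of mares 1 to 4 and 28.9, 29.1, 18.6 and 26.3 CPM in the pregnant ones. It was higher in mares 1 and 2 and lower in mares 3 and 4, and its fold change of 0.989 had a 95% interval of 0.859 to 1.14. IFIH1, which encodes the sensor of long RNA, and DHX58, a regulator of both, had fold changes of 1.04 (0.843 to 1.29) and 1.06 (0.924 to 1.21).

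Of 4 transcription factors 1 rose and 0 fell, beside 8.53% and 8.19% of all genes. Estimates of all 4 lay above 0, and differences between the 4 were not tested. IRF7, the factor that amplifies interferon production, stood at 33.0, 29.9, 39.5 and 30.5 CPM in the cycle and at 46.4, 62.3, 52.7 and 43.8 CPM in pregnancy. Each pregnant library lay above each cyclic one, with the highest in mare 2. The log2 difference for IRF7 was 0.62 ± 0.11 (SE; adjusted p = 0.00558), and it passed in 12 of 12 alternatives. STAT2 had 69.5, 76.2, 71.6 and 83.8 CPM and then 86.0, 84.5, 81.2 and 76.0 CPM, which made it higher in mares 1 to 3 and lower in mare 4. Its fold change was 1.09 (95% interval 0.961 to 1.23; adjusted p = 0.336). IRF9, its DNA-binding partner, had 41.3, 47.3, 52.1 and 41.7 CPM and then 54.2, 73.0, 48.4 and 54.3 CPM, lower in mare 3 alone. It missed the threshold with adjusted p = 0.0839 and passed without mare 3 (adjusted p = 0.0139). IRF1, a factor that answers to interferon gamma, was higher in 4 of 4 mares without passing (fold change 1.16, 1.02 to 1.32; adjusted p = 0.119).

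ISG15 is a ubiquitin-like protein that is joined to other proteins, with UBE2L6 as its conjugating enzyme, HERC5 and the related HERC6 as ligases, and USP18 as the protease that removes it and also dampens receptor signalling. UBE2L6 and HERC6 rose. UBE2L6 had 8.50, 8.29, 7.08 and 6.75 CPM in the cycle and 11.5, 10.1, 10.8 and 10.4 CPM in pregnancy, with no overlap. Its fold change was 1.40 (95% interval 1.17 to 1.68; adjusted p = 0.0215). UBE2L6 passed in 7 of 12 alternatives and missed the threshold in DESeq2 (adjusted p = 0.0601) and without mare 1, 3 or 4 (0.0834, 0.0820 and 0.0798). HERC6 had 2.51, 2.83, 3.97 and 3.04 CPM in the cycle and 6.07, 17.7, 5.68 and 6.45 CPM in pregnancy, so that mare 2 stood far above the other 3 pregnant libraries. Its log2 fold change of 1.39 ± 0.34 (SE; adjusted p = 0.0379) was 0.93 ± 0.21 without mare 2 (adjusted p = 0.0242). HERC6 missed the threshold without mare 1 (adjusted p = 0.144), without mare 4 (0.104) and with no low-count filter (0.0670), and passed in 8 of 12 alternatives.

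ISG15 itself was not called. It stood at 11.8, 18.7, 11.9 and 11.8 CPM in the cyclic libraries and at 11.4, 33.6, 10.3 and 17.1 CPM in the pregnant ones. Mare 2 was highest in both states, ISG15 was higher in pregnancy in mares 2 and 4 and lower in mares 1 and 3, and the groups overlapped. The fold change was 1.23 with a 95% interval of 0.931 to 1.64 (adjusted p = 0.287), and the log2 fold change of 0.30 was 0.09 without mare 2. USP18 had 2.19, 3.14, 3.29 and 2.79 CPM and then 3.78, 5.54, 3.04 and 4.44 CPM, lower in mare 3 alone (fold change 1.45, 1.05 to 2.00; adjusted p = 0.113, and 0.0457 without mare 3). HERC5 was higher in 4 of 4 mares at a fold change of 1.35 (0.976 to 1.86; adjusted p = 0.194).

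**Figure D2:**
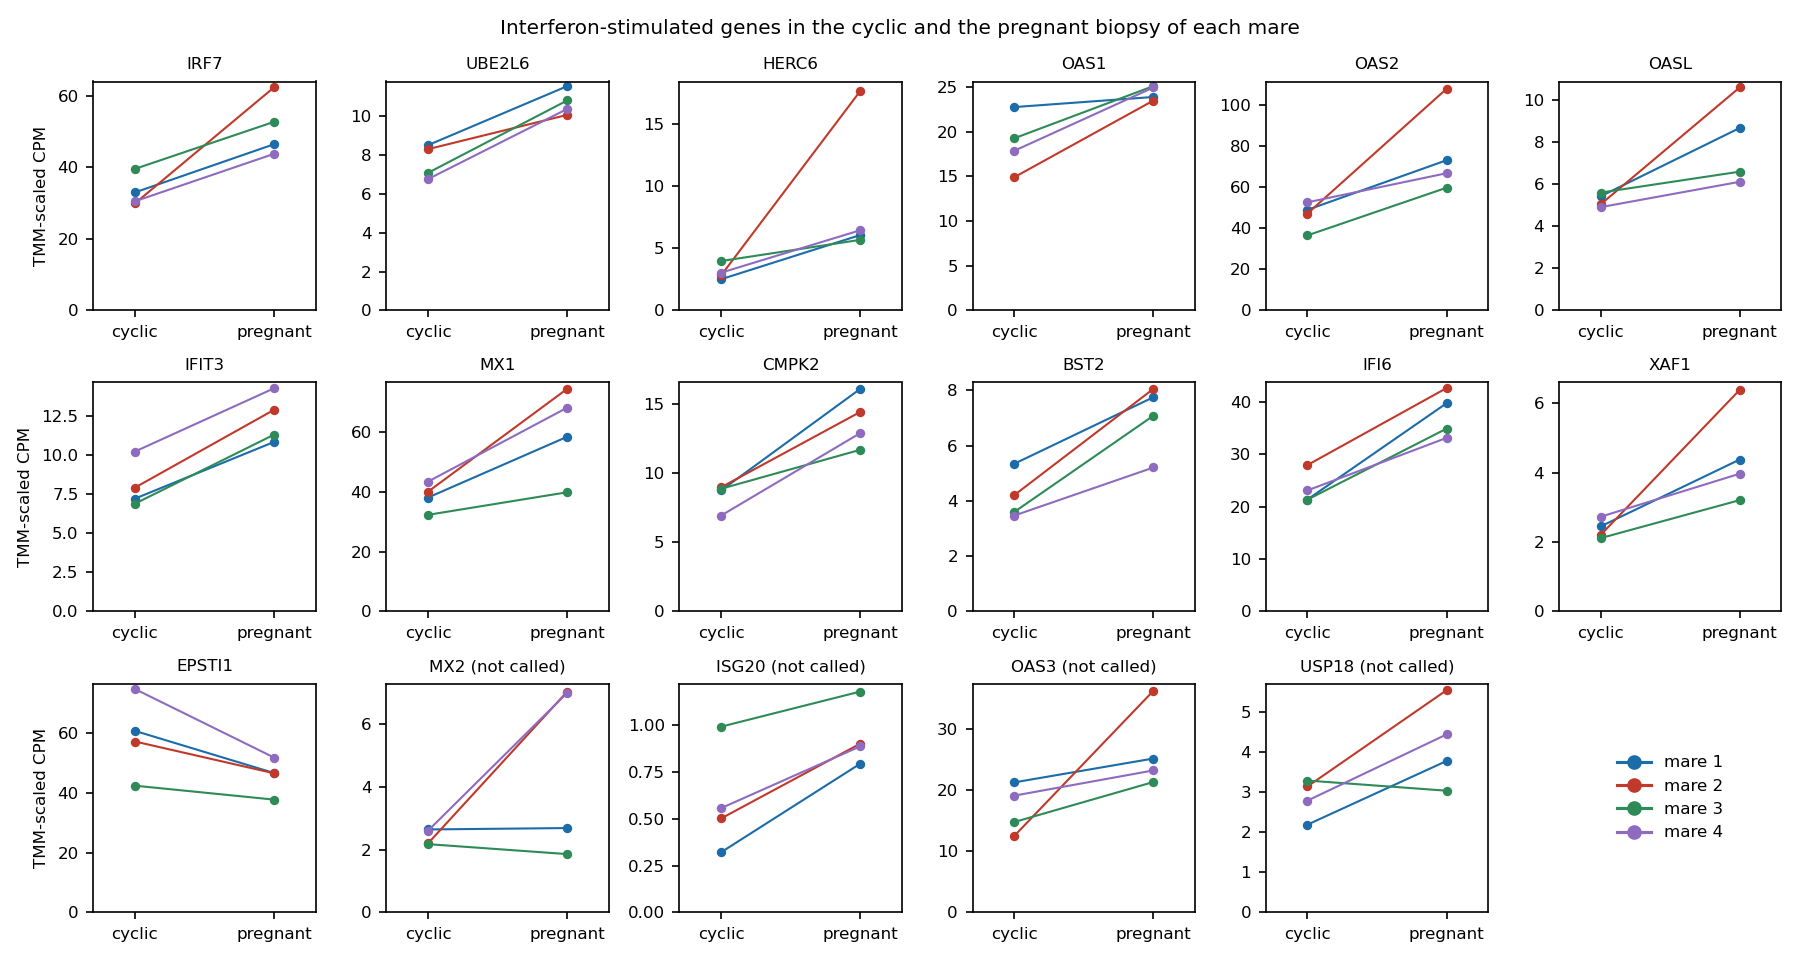
TMM-scaled CPM (vertical axis, from 0) in the cyclic and the pregnant biopsy of each mare, 1 line per mare, for the 13 genes that passed and the 4 others with the largest log2 fold changes. Lines of the 12 risers slope up in each mare and those of EPSTI1 slope down; mare 2 (red) reaches 17.7 CPM for HERC6, while the pregnant level of MX2 is 7.03 and 6.99 CPM in mares 2 and 4 and 2.68 and 1.86 CPM in mares 1 and 3.

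The oligoadenylate synthetases are antiviral enzymes that respond to double-stranded RNA. Here 3 of 4 members tested, OAS1, OAS2 and OASL, rose, beside 8.53% of all genes. OAS2 had 49.0, 47.2, 36.6 and 52.7 CPM in the cycle and 73.2, 108, 59.8 and 66.8 CPM in pregnancy, without overlap and with mare 2 highest. Its log2 fold change was 0.71 ± 0.13 (SE; adjusted p = 0.0104, and 0.0513 without mare 3). OAS1 went from 22.7, 14.9, 19.2 and 17.8 CPM to 23.9, 23.5, 25.1 and 24.9 CPM, so the pregnant libraries lay close together while the cyclic ones were spread. Its fold change of 1.32 (95% interval 1.11 to 1.56; adjusted p = 0.0329) was not called without mare 2, 3 or 4 (adjusted p = 0.141, 0.0882 and 0.0981), nor by DESeq2 (0.0511). OASL, a family member that acts on the sensor RIGI, had 5.41, 5.03, 5.59 and 4.90 CPM and then 8.65, 10.6, 6.58 and 6.10 CPM. The groups did not overlap, but at adjusted p = 0.0454 OASL was near the threshold and passed in 6 of 12 alternatives, failing without any 1 of the 4 mares (adjusted p 0.0509 to 0.174).

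OAS3 did not pass although its groups did not overlap. It had 21.3, 12.5, 14.8 and 19.1 CPM in the cycle and 25.2, 36.2, 21.3 and 23.2 CPM in pregnancy. Mare 2 went from the lowest cyclic to the highest pregnant value, a ratio of 2.90, while the other mares had 1.18 to 1.44. The log2 fold change of 0.64 ± 0.23 (adjusted p = 0.123) was 0.34 ± 0.11 without mare 2, and DESeq2 called it (adjusted p = 0.0231). ISG20, an RNA exonuclease, had only 5 to 16 counts per cyclic and 8 to 21 per pregnant library, and was higher in 4 of 4 mares at a fold change of 1.59 (0.966 to 2.62; adjusted p = 0.191).

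IFIT proteins bind viral RNA that lacks the cell's own cap marks. IFIT3 rose from 7.21, 7.92, 6.89 and 10.2 CPM to 10.8, 12.9, 11.3 and 14.3 CPM, with ratios of 1.50, 1.63, 1.64 and 1.40 in mares 1 to 4. Its log2 fold change was 0.62 ± 0.11 (SE; adjusted p = 0.00522), a call lost only without the mare block among 12 alternatives (adjusted p = 0.0763). IFIT5 had 18.9, 37.1, 25.5 and 27.3 CPM and then 23.4, 33.4, 28.1 and 38.1 CPM, lower in mare 2 and higher in the other 3 (fold change 1.14, 0.964 to 1.35; adjusted p = 0.268).

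MX1 and MX2 are dynamin-like GTPases that trap viral particles, and MX1 is widely used as a readout of interferon tau in ruminants. MX1 had 38.1, 40.0, 32.3 and 43.4 CPM in the cycle and 58.4, 74.4, 39.8 and 68.1 CPM in pregnancy. It was higher in each mare, but the pregnant value of mare 3 lay below the cyclic values of mares 2 and 4. The log2 fold change was 0.62 ± 0.09 (SE; adjusted p = 0.00285), and the call was lost only without the mare block (adjusted p = 0.0931).

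MX2 was higher by more than 2-fold in mares 2 and 4 and near its cyclic level in mares 1 and 3. It had 2.64, 2.20, 2.17 and 2.60 CPM in the cyclic libraries, a narrow range, and 2.68, 7.03, 1.86 and 6.99 CPM in the pregnant ones. Ratios were 3.19 and 2.68 in mares 2 and 4, and 1.02 and 0.854 in mares 1 and 3. In mares 1 and 3 they rest on 41 and 35 cyclic and 27 and 33 pregnant counts, too few to tell a fall from no change. MX2 had the largest estimate of the genes that did not pass, with a log2 fold change of 0.81 ± 0.34 (adjusted p = 0.153, and 0.0618 to 0.438 over 12 alternatives).

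CMPK2, a mitochondrial nucleotide kinase, and its neighbour RSAD2, the antiviral radical enzyme viperin, differed in their calls. CMPK2 rose from 8.76, 8.99, 8.88 and 6.94 CPM to 16.1, 14.4, 11.7 and 12.9 CPM without overlap. Its log2 fold change of 0.71 ± 0.12 (SE; adjusted p = 0.00443) passed in 12 of 12 alternatives. RSAD2 had 1.55, 1.38, 1.80 and 1.12 CPM and then 1.79, 2.13, 0.844 and 2.07 CPM, with the lowest pregnant value in mare 3. Its fold change of 1.14 had a wide 95% interval of 0.680 to 1.91 (adjusted p = 0.751), on 15 to 35 counts per library. PARP9, PARP14 and DTX3L, which modify proteins with ADP-ribose or ubiquitin, had fold changes of 1.16, 1.14 and 1.03, and 0 of 3 passed (adjusted p 0.135 to 0.793). Of these 3, 1 (PARP14) had an unadjusted p below 0.05 in edgeR's test, and 0 passed in any of 12 alternatives.

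Among the remaining genes, 3 of 8 rose and 1 fell, beside 8.53% and 8.19% of all genes, so the number that fell was near that share. IFI6, a mitochondrial and endoplasmic reticulum protein that limits cell death, had 21.4, 28.0, 21.4 and 23.1 CPM in the cycle and 39.8, 42.7, 34.9 and 33.2 CPM in pregnancy. With no overlap and ratios of 1.43 to 1.86, it had the smallest adjusted p of the 34 genes, 0.00142 (log2 fold change 0.68 ± 0.09, SE), and passed in 12 of 12 alternatives. BST2 (tetherin), which holds budding viruses at the cell surface, had 5.34, 4.21, 3.60 and 3.47 CPM and then 7.76, 8.06, 7.09 and 5.21 CPM. It was higher in each mare, while the pregnant library of mare 4 lay just under the cyclic library of mare 1. BST2 had a fold change of 1.70 (95% interval 1.33 to 2.15; adjusted p = 0.00966). XAF1, an antagonist of the apoptosis inhibitor XIAP, went from 2.45, 2.20, 2.11 and 2.73 CPM to 4.37, 6.38, 3.21 and 3.97 CPM, highest in mare 2. Its fold change of 1.85 (1.32 to 2.58; adjusted p = 0.0212) was not called without mare 1 (adjusted p = 0.0793) or mare 2 (0.0846).

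EPSTI1, an interferon-responsive gene named for its expression where epithelium meets stroma, went the other way. It had 60.7, 57.2, 42.4 and 74.7 CPM in the cycle and 46.6, 46.5, 37.7 and 51.8 CPM in pregnancy. The value fell in each mare, to 0.693 to 0.890 of its cyclic level, although the groups overlapped because mare 3 was low in both states. The log2 fold change was -0.35 ± 0.08 (SE; adjusted p = 0.0147), and the call was lost without mare 1 (0.0766), without mare 4 (0.0620) and without the mare block (0.287). IFI35, IFI44, IFI44L and SP100 had fold changes of 1.24, 1.20, 1.04 and 0.963 and did not pass (adjusted p 0.100 to 0.858).

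Several of these genes lie side by side in the genome. In the RefSeq gene annotation of the horse assembly TB-T2T, which need not be the build of the counts, 7 pairs of the 34 genes are immediate protein-coding neighbours, and they hold 13 genes. In 5 of the 7 pairs exactly 1 gene was called: CMPK2 but not RSAD2, MX1 but not MX2, HERC6 but not HERC5, and OAS2 and OAS1 but not OAS3 between them. In the pairs DTX3L with PARP9 and IFI44 with IFI44L 0 genes were called. These are calls of single genes, and the differences within pairs were not tested. The spans of 9 of the 34 genes (RIGI, IFIH1, UBE2L6, HERC5, HERC6, IFIT3, PARP9, DTX3L and XAF1) overlap another counted gene in that annotation, and the kit as described does not mark the strand, so some of their reads may belong to the partner.

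Ratios differed in size from mare to mare. The median log2 ratio of pregnant to cyclic over the 34 genes was 0.30, 0.64, 0.28 and 0.36 in mares 1 to 4, while that of all genes tested was 0.003, 0.010, -0.014 and 0.007. In mare 2, 32 of 34 genes were higher in pregnancy and 7 more than doubled, as did 5.39% of all genes tested. In mare 3, 24 of 34 were higher and 0 more than doubled, beside 3.89% of all genes, a share too small to read the 0 as a result. The highest ratio among the 4 mares fell in mare 2 for 18 of 34 genes, and the lowest in mare 3 for 15 of 34. Shares of all genes were not computed for the counts of highest and lowest ratios, so these describe the 34 genes only. The summed level of the 34 genes was 737, 727, 648 and 751 CPM in the cyclic libraries and 880, 1045, 756 and 858 CPM in the pregnant ones, a sum in which abundant genes weigh most. Without mare 2 the median log2 fold change of the list was 0.30, and 9 genes were called higher.

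Single genes also differed between mares over both states. RIGI, ISG15, IFIT5, MX1, PARP14, IFI44 and EPSTI1 passed the test of the mare terms (adjusted p 0.0209 to 0.0454). These 7 of 34 are a share near the 15.9% of all genes tested, so the number is not a result about the list. RIGI and PARP14 were lowest in mare 3 in both states, as were MX1, IFI44 and EPSTI1. IFIT5 was lowest in mare 1 in both states. With library totals in place of TMM scaling the count was 2 of 34, beside 14.8% of all genes. Without mares 1 to 4 in turn it was 2, 6, 2 and 5, beside 7.17%, 13.3%, 10.9% and 11.0% of all genes.

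**Figure D3:**
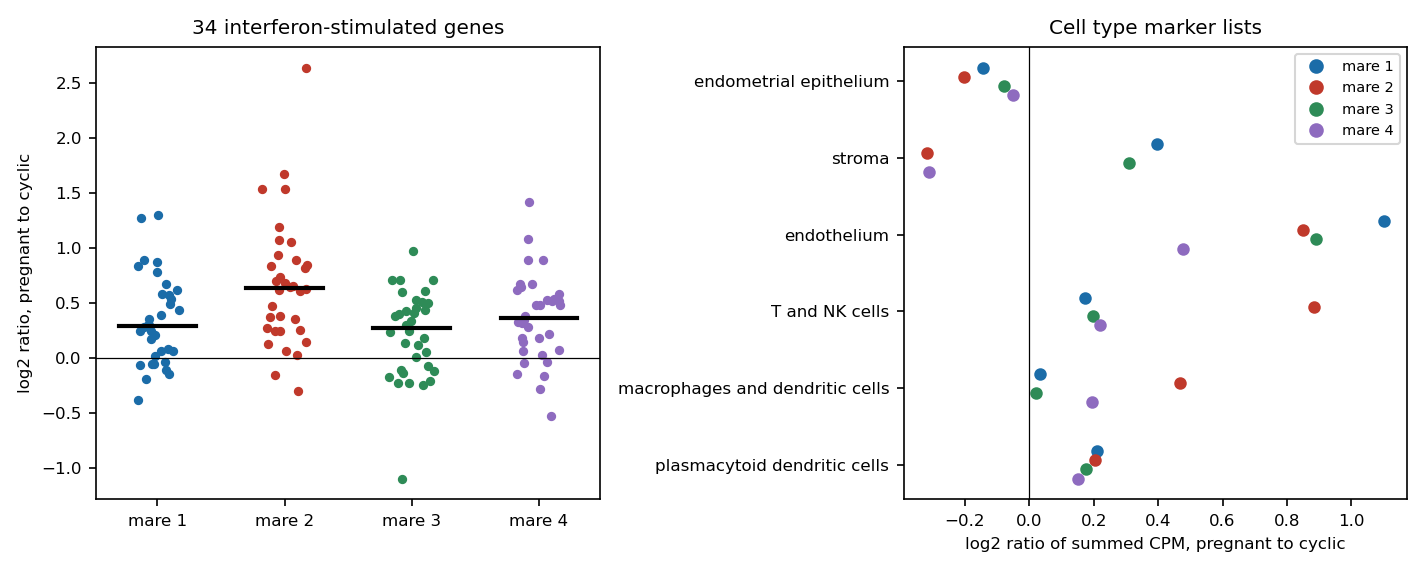
Left, log2 ratio of pregnant to cyclic CPM of each of the 34 genes in each mare, with the median as a bar (0.30, 0.64, 0.28 and 0.36 in mares 1 to 4). Right, log2 ratio of the summed CPM of cell type marker lists, 1 point per mare; T and NK cell markers reach 0.88 in mare 2 against 0.17 to 0.22 in the others, and endothelial markers lie above 0 in each mare.

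Summed markers of endothelium and smooth muscle were higher in the pregnant library of each mare. So were those of T and NK cells, of macrophages and dendritic cells, and of plasmacytoid dendritic cells. Sums for B and plasma cells and for granulocytes and mast cells rose in some mares and fell in others. For comparison with the marker counts, 8.53% of all genes tested were higher and 8.19% lower. Of 15 T and NK cell markers, 15 had a Gene ID, none was at 0, and 4 of 14 tested rose (CD3D, ZAP70, GZMK and CCL5). Their sum ran from 83.3 to 130 CPM in the cycle and from 104 to 154 CPM in pregnancy, and in mare 2 it went from 83.3 to 154 CPM. B and plasma cell markers summed to 33.8 to 101 CPM and to 64.5 to 99.4 CPM, and 2 of 5 tested rose and 0 fell. The sum went from 88.2 to 64.5 CPM in mare 1 and from 33.8 to 98.4 in mare 2. It went from 101 to 99.4 in mare 3 and from 53.7 to 94.3 in mare 4. Such sums follow their most abundant genes: JCHAIN had 9247 counts over the 8 libraries, and the other B and plasma cell markers had 10 to 275 each. Macrophage and dendritic cell markers summed to 152 to 232 CPM and to 186 to 237 CPM, with 1 of 11 tested higher, near the share of all genes. Granulocyte and mast cell markers had 0 of 5 tested called, with log2 ratios of sums of 0.26, 1.06, -0.61 and -0.20 in mares 1 to 4. In that list TPSB2 had 14857 counts and the next marker, KIT, had 1629. Of the markers of plasmacytoid dendritic cells, which are strong producers of type I interferon, 7 of 10 had a Gene ID, 0 of 6 tested were called, and sums were 46.0 to 58.3 and 51.0 to 67.4 CPM; their defining markers CLEC4C, IL3RA and LILRA4 matched no Gene ID. Of 10 endothelial markers 10 rose, from a sum of 429 to 595 CPM to one of 773 to 1278 CPM, with ratios highest in mare 1 and lowest in mare 4. Smooth muscle had 5 of 10 markers higher and 0 lower, with a sum that went from 403 to 652 CPM in the cycle to 616 to 928 CPM in pregnancy, higher in 4 of 4 mares (log2 ratios 0.30 to 1.18). Of 9 stromal markers 5 rose and 0 fell, and their sum was higher in mares 1 and 3 and lower in mares 2 and 4. COL1A1 and COL1A2 weighed most in that sum, with 171287 and 179669 counts, and the next marker, VIM, had 61192. Of 8 epithelial markers 1 rose and 2 fell, and their sum was lower in pregnancy in each mare (log2 ratios -0.20 to -0.05). Of 6 trophoblast-associated genes tested, 2 rose and 0 fell. The part of any of these cell types in the change of the interferon-stimulated genes was not tested.

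Genes elsewhere in the pathway were read from a list of 106, of which 85 had a Gene ID and 78 were tested. Of the 78, 11 rose and 6 fell, while 8.53% of all genes were higher and 8.19% lower, so the number that fell was near the share of all genes. The median log2 fold change was 0.14. Without the mare as a block 3 of the 78 were higher (IFI27, TNFSF10 and LGALS3BP) and 0 lower, beside 1.75% and 0.789% of all genes. Among 10 genes listed as inhibitors, 1 rose and 2 fell. The list includes ISG20L2, which is not an established inhibitor of this pathway. IRF2, a repressor that competes for the same promoter sites, had a fold change of 1.19 (adjusted p = 0.0313). PTPN6, a phosphatase that acts on the JAK kinases, and TRIM24, a nuclear co-regulator, had 0.807 (adjusted p = 0.0106) and 0.742 (adjusted p = 0.00384). IRF2 was not called in DESeq2 (adjusted p = 0.0754) or without any 1 of the 4 mares (0.0556 to 0.118). SOCS1 and SOCS3, feedback inhibitors of JAK signalling, had log2 fold changes of 0.46 and -0.70 that did not pass (adjusted p = 0.587 and 0.738).

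Of 15 genes that act upstream, from pathogen sensors to interferon production, 2 rose and 2 fell. Among all genes tested 8.53% were higher and 8.19% lower, so these counts are not a result about the list. STING1, the adaptor of the DNA sensor CGAS, had 5.47, 3.77, 5.09 and 4.21 CPM in the cycle and 11.4, 8.64, 7.48 and 6.81 CPM in pregnancy, without overlap. It had a fold change of 1.83 (95% interval 1.44 to 2.33; adjusted p = 0.00558). The kinase IKBKE rose 1.36-fold, and the signalling ligases TRAF3 and TRAF6 fell to 0.782 and 0.854 of the cyclic level (adjusted p 0.0142 to 0.0309 for the 3). IKBKE missed the threshold without mare 1, 2 or 3 (adjusted p 0.0534 to 0.0649), TRAF3 without mare 1 or 3 (0.0649 and 0.0650) and TRAF6 without any 1 of the 4 mares (0.0630 to 0.136). With library totals neither TRAF3 (0.0622) nor TRAF6 (0.104) was called. CGAS itself had 3.63 and 3.64 CPM on average.

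The list of 56 further interferon-stimulated genes had 42 tested, with 7 higher and 2 lower, beside 8.53% and 8.19% of all genes, and a median log2 fold change of 0.20. IFI27, a mitochondrial relative of IFI6, rose from 86.7, 107, 81.7 and 79.2 CPM to 159, 181, 138 and 129 CPM, with ratios of 1.62 to 1.83 (adjusted p = 2.51e-04). TNFSF10, the death ligand TRAIL, rose from 70.1, 51.0, 45.1 and 44.1 CPM to 125, 92.2, 107 and 91.4 CPM, with ratios of 1.79 to 2.37 (adjusted p = 2.21e-04). Both passed in 12 of 12 alternatives and neither had overlapping groups. OGFR, TMEM140, TRANK1, the secreted glycoprotein gene LGALS3BP and the antiviral ubiquitin ligase gene TRIM22 also rose, with fold changes of 1.34, 1.38, 1.26, 1.75 and 1.69 (adjusted p 0.00413 to 0.0306). Calls were lost without mare 1 for TMEM140, TRANK1 and LGALS3BP (adjusted p = 0.0665, 0.0763 and 0.0937). They were lost without mare 2 for LGALS3BP and TRIM22 (0.0980 and 0.130), without mare 3 for TRANK1 and LGALS3BP (0.0501 and 0.0571) and without mare 4 for TRIM22 (0.107).

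The genes of that list that fell were PNPT1 and EIF2AK2. PNPT1, a mitochondrial exoribonuclease, had 23.6, 40.6, 26.4 and 36.4 CPM in the cycle and 12.1, 22.3, 19.2 and 19.8 CPM in pregnancy. Every pregnant library lay below every cyclic one, at 0.513 to 0.727 of the same mare's cyclic level (adjusted p = 0.00152). EIF2AK2, the antiviral kinase PKR that halts translation, fell from 5.47, 4.21, 3.48 and 2.42 CPM to 3.38, 3.03, 1.52 and 1.60 CPM, lower in each mare with overlapping groups (fold change 0.603, 0.445 to 0.819; adjusted p = 0.0325). EIF2AK2 missed the threshold without mare 1, 3 or 4 (adjusted p = 0.119, 0.107 and 0.0617) and in DESeq2 (0.0896). The chemokine CXCL10, a sensitive target of interferon gamma, had 0.895 and 1.57 CPM on average (adjusted p = 0.0959).

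**Figure D4:**
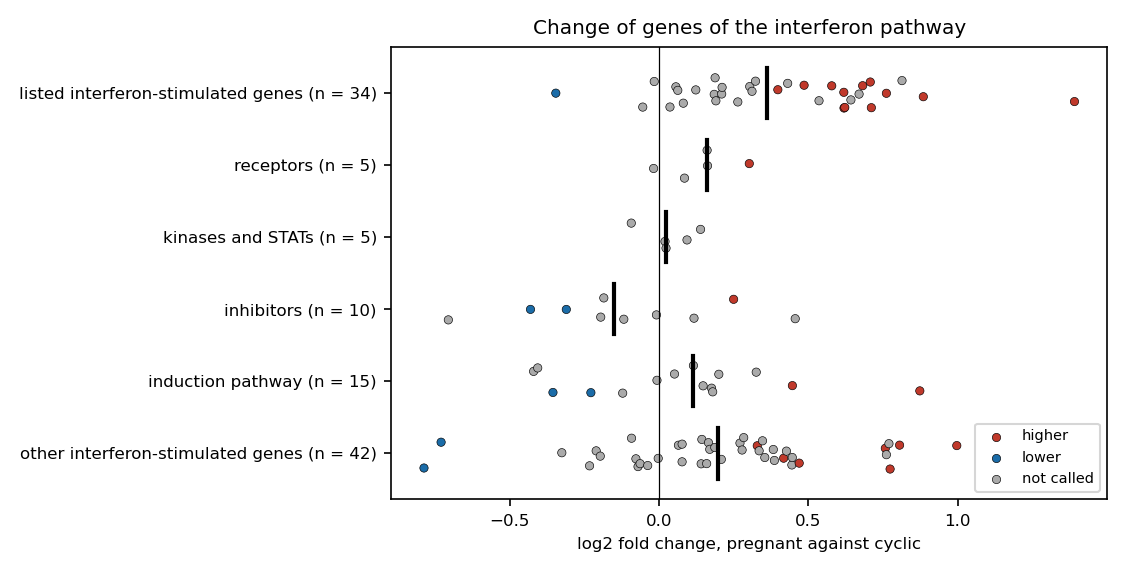
Each point is the fitted log2 fold change (horizontal axis, pregnant against cyclic) of 1 tested gene, in rows for the listed interferon-stimulated genes and 5 other lists of the pathway; bars are row medians. Red points passed as higher and blue as lower. The median is 0.36 for the 34 genes, 0.02 for kinases and STATs and -0.15 for the list of inhibitors, which includes ISG20L2.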

How the data were processed

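Messenger RNA was sequenced from 8 unstranded poly(A) libraries of 4 mares. The authors deposited raw read counts for 24942 Gene IDs; the submitters' processing notes name Trimmomatic 0.32.2 and HISAT2 2.0.3. The sources used here do not give build, annotation or counter. A further signal table deposited by the authors holds values of 14037 genes. Tested on the values, 100% equal TMM-scaled CPM with library sizes summed over those genes (relative tolerance 1e-06), and 0.049% do with sizes over all genes. It served 1 alternative, with a pseudocount of 0.5. No column of values was left unused (0 columns).

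Symbols came from the RefSeq table of assembly TB-T2T, which matched 21420 Gene IDs (85.9%). In R 4.3.3 with edgeR 4.0.16, filterByExpr (minimum count 10) kept 15342 genes, TMM scaled the libraries, and the robust quasi-likelihood F-test compared the states with the mare as block, since the design text pairs the biopsies. P-values were adjusted by Benjamini-Hochberg (threshold 0.05). SE is the log2 fold change divided by the square root of F, and intervals are 95%. Same-mare libraries deviated together from the means of their states (correlations 0.38 to 0.54, against at most -0.02 between mares). Subtracting these means lowers the values between mares when same-mare values are positive, so the contrast is partly built in. No replicate pair agreed within sampling noise (lowest chi-square per degree of freedom 24.6). Ratios per mare are of CPM without a pseudocount. Alternatives were other scalings and filters, DESeq2 1.42.0, limma 3.58.1, no mare block, and leaving out each mare. Code was tested on simulated data.

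Members and lists were chosen with earlier results of these data known. Genes given in every library are those called, the 4 others with the largest log2 fold changes, and the 4 with the highest mean CPM (OAS2, STAT2, EPSTI1, IRF9); ISG15, RIGI, RSAD2 and IFIT5 were added after their values were seen. Of other pathway lists, receptors, kinases and ligands were named, with up to 6 called genes per list by smallest p; TRIM22, SOCS1, SOCS3, CGAS and CXCL10 were likewise added after their values were seen. Some genes of the pathway lists are counted in their list but not reported here singly.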

Additional observations from a re-analysis of the deposited data

Results flagged for a closer look

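By Dixon's ratio, 3 of the 68 groups of 4 libraries (34 genes, 2 states) held a library far from the other 3; chance alone flags about 1 in 20 groups. ISG15 had 18.7 CPM in the cyclic library of mare 2, against 11.8 to 11.9 CPM in the other cyclic libraries. HERC6 had 17.7 CPM in the pregnant library of mare 2, against 5.68 to 6.45 CPM in the other pregnant ones. CMPK2 had 6.94 CPM in the cyclic library of mare 4, against 8.76 to 8.99 CPM in the other cyclic ones.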

How the results depend on the processing

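Over 12 alternatives, 360 of 404 values of single genes kept their direction and their side of the threshold, 31 lost the call, 4 gained it and 9 changed sign. The 13 called genes kept their direction in each alternative. Without the mare as replicate block, 3 of the 34 genes were higher (IRF7, CMPK2 and IFI6) and 0 lower, beside 268 higher and 121 lower among all genes (1.75% and 0.789%), and 3 higher and 0 lower among other pathway genes; of the 12 risers 3 remained called, while 8 to 9 did when any 1 mare was left out. Leaving out 1 mare gave 8 to 10 of the 34 higher and 0 to 1 lower, 653 to 1050 genes higher and 613 to 1007 lower, the lowest without mare 1, and 5 to 10 pathway genes higher and 3 to 6 lower; 2 to 6 of the 34 genes then differed between mares, and 2 did with library totals. The median log2 fold change of the 34 ran from 0.30 to 0.45 when a mare was left out. Signs changed for 5 genes, none of them called: RIGI had 0.020 with library totals and -0.078 to 0.035 when a mare was left out, IFIH1 -0.065 to 0.18, DTX3L -0.043 to 0.068, IFI44L -0.068 to 0.15 and RSAD2 -0.055 to 0.58. The cause was not tested. ISG20 and RSAD2 dropped out under the filter of more than 2 CPM in at least 2 libraries. Genes with few counts, such as ISG20, limit the size of change that can be seen at this depth.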
